A study of Homo sapiens with 44 samples.

Results

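The genes described here are 32 genes of cholesterol and fatty acid synthesis, most of them known targets of the sterol regulatory element binding proteins (SREBPs), followed in human cells after knockdown of IRF2BP2, a transcriptional coregulator. They were picked as a list of symbols, with earlier results of these data known, from the 25689 gene symbols of the RNA-seq tables of the series. All 32 were present in both tables: 18 enzymes of the sterol branch, 6 regulators and sterol carriers, and 8 enzymes of the fatty acid branch. The study examined how IRF2BP2 acts where glucocorticoid and TNF signalling meet.

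HEK293-GR cells are an isogenic Flp-In line of human embryonic kidney origin that expresses the glucocorticoid receptor at all times. A549 cells are a human lung adenocarcinoma line. In every RNA-seq group the cells were held in steroid-depleted medium and transfected for 72 h with 20 nM of a pool of small interfering RNAs, either non-targeting (siNON) or against IRF2BP2 (siIRF2BP2). HEK293-GR cells then received vehicle (ethanol) or 100 nM dexamethasone (dex) for 6 h. A549 cells received vehicle, 100 nM dex, 10 ng/ml TNF, or both agents for 6 h. IRF2BP2 chromatin immunoprecipitation (ChIP) was done in HEK293-GR cells after 1 h of vehicle or dex. Knockdown samples therefore share the depleted medium and transfection with their controls, and each line stands for 1 cell population.

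Cells build cholesterol from acetyl-CoA through mevalonate, squalene and lanosterol, and fatty acids from the same precursor through malonyl-CoA. SREBP-2, encoded by SREBF2, and SREBP-1, encoded by SREBF1, are made as membrane proteins of the endoplasmic reticulum, where the escort protein SCAP holds them and the INSIG proteins retain the complex while sterols are plentiful. When sterols fall, SCAP carries the SREBPs to the Golgi, and their cleaved ends enter the nucleus and bind sterol regulatory elements, usually beside CCAAT boxes bound by NF-Y. SREBP-2 is known mainly for the sterol branch and SREBP-1 for the fatty acid branch. INSIG1 and SREBF2 are themselves SREBP targets.

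RNA levels are given as FPKM, the number of reads on a gene scaled to its length in kilobases and to the depth of the library. The HEK293-GR table held 12 libraries, replicates 1 to 3 of 4 groups. The labels do not say whether replicates came from separate cultures, so p-values measure only the spread between these libraries, which may be technical. Another 4 HEK293-GR RNA samples had no column and were not analysed here. Depth recovered from the values was 18.2 to 28.5 M tags (M for mega) per HEK293-GR library. The A549 table held 1 pooled column for each of 8 groups, with 35.8 to 56.9 M tags, so A549 comparisons rest on the authors' deposited fold changes and false discovery rates (FDR), and no spread between replicates can be given. A549 values were scaled to the genomic span of the transcript and HEK293-GR values to exon length, so levels were not compared between lines. All 32 genes were well measured in HEK293-GR, from 4.67 to 86.2 FPKM, with at least 182 reads in any library. No gene of the HEK293-GR table exceeded 3.11 reads per base in any library, against 142 to 326 at the A549 maximum, and 11 of the 32 genes exceeded 1 read per base, FASN reaching 1.83. How far this common upper level flattened dense genes was not tested. Of the HEK293-GR libraries, siNON vehicle replicate 3 stood furthest from its group, with a median distance of 0.19 on the log2 scale. The A549 markers AKR1B10, AKR1C1 and KRT7 were at most 0.218 FPKM in HEK293-GR and at least 36.4 FPKM in A549, while the A549 marker ALDH1A1 was at 2.35 to 3.996 FPKM in HEK293-GR and at least 106 in A549. HEK293 markers LIN28B and HOXA11 were at least 10.6 FPKM in HEK293-GR and at most 0.223 in A549. ZIC2 was at 14.3 to 25.9 FPKM in HEK293-GR and 1.65 to 4.62 FPKM in A549. PAX2 was at 0.588 to 1.41 FPKM in HEK293-GR and at most 0.007 FPKM in A549. Of 6 markers of blood, endothelial and fibroblast cells, PTPRC, PECAM1, VWF and DCN stayed at or under 0.2 FPKM in both lines. The A549 marker values are also per genomic span, so a limit shared by both lines does not compare their levels. COL1A1, a fibroblast collagen, was at 4.56 to 7.42 FPKM in HEK293-GR and 1.49 to 5.23 in A549, and CD14, a monocyte marker, at 0.058 to 0.618 and 1.22 to 2.94. Their part in the results was not tested.

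Promoter sequences were available for 28 of the 32 genes in the RefSeq table of build GRCh38.p14. The 250 bases before the annotated start, which lie upstream of the transcript, are printed 5′ to 3′ for 6 genes on which the results below turn. In HEK293-GR cells MVD, LSS, INSIG1 and SREBF2 were lower after knockdown, STARD4 was higher, and NSDHL had the largest dex response of the 32. Capitals mark the CCAAT box, CCAAT or its reverse ATTGG, the E-box CACGTG, and a sterol element of the letters TCACNCCAC.
SREBF2 (chr22:41832855-41833104, plus strand): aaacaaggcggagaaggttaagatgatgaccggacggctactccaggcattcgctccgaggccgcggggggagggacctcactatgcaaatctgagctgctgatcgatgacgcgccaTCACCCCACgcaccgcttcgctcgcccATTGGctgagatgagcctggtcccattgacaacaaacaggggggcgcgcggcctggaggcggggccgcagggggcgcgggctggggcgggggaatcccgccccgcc
INSIG1 (chr7:155297628-155297877, plus strand): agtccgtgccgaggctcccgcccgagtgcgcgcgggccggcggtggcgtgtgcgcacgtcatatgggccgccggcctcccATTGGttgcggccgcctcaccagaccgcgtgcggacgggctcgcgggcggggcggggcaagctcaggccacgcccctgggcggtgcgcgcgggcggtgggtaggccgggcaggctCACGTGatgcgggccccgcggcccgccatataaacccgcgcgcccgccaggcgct
LSS (chr21:46228775-46229024, minus strand): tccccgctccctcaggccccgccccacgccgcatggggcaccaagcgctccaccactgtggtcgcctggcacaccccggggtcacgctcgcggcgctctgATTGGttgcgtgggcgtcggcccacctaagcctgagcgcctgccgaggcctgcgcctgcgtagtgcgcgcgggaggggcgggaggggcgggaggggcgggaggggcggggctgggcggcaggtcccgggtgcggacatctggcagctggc
MVD (chr16:88663092-88663341, minus strand): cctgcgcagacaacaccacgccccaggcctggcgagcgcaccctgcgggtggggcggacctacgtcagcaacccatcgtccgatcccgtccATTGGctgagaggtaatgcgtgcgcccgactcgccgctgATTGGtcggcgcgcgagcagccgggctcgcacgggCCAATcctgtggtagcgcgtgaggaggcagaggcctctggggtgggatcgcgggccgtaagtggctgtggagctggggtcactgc
NSDHL (chrX:152830813-152831062, plus strand): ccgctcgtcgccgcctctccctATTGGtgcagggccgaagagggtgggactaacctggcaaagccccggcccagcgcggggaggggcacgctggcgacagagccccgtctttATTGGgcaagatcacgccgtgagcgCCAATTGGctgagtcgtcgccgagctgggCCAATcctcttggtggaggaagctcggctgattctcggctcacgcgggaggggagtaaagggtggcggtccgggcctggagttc
STARD4 (chr5:111512536-111512785, minus strand): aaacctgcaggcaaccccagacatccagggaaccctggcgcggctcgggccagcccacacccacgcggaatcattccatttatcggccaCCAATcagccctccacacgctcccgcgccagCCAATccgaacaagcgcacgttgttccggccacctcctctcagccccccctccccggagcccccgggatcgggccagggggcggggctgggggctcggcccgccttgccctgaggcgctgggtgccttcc

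In windows of 250 bases before to 50 bases after the start, a CCAAT box on either strand occurred in 21 of 28 promoters (75%), against 39.7% of 27305 genes searched. Of the sterol branch 13 of 15 promoters held one, of the fatty acid branch 5 of 7, and of the regulators 3 of 6. NSDHL carried 5, of which 2 on opposite strands overlap in CCAATTGG, at 113 and 110 bases before the start. The only match to TCACNCCAC was in SREBF2, 133 bases before the start and upstream of its CCAAT box, which lies at 106 (1.39% of all genes held a match). E-boxes occurred in 4 promoters, LSS, SC5D, INSIG1 and SCAP (8.77% of all genes), that of LSS in the 50 bases that are not printed. The glucocorticoid response element palindrome was in none of the 28 (0.480% of all genes). These are letter matches within the windows and do not show occupancy.

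IRF2BP2, the knockdown target, was at 23.4, 25.02 and 20.3 FPKM in the siNON vehicle libraries of HEK293-GR cells and at 12.6, 11.8 and 13.7 FPKM in the siIRF2BP2 vehicle libraries. Under dex the values were 20.6, 20.04 and 19.3 FPKM with siNON and 9.64, 11.1 and 10.4 FPKM with siIRF2BP2. The groups did not overlap under either treatment, and IRF2BP2 fell by 0.84 and 0.94 on the log2 scale (limma, adjusted p = 1.87e-05 and 3.44e-06). In the authors' deposited table for A549, IRF2BP2 had log2 fold changes of -0.31 with vehicle, -0.66 with dex, -0.40 with TNF and -0.62 with both agents, each past FDR 0.05. The authors' pooled values with siNON and siIRF2BP2 were 29.7 and 26.3 FPKM under vehicle and 31.3 and 22.9 FPKM under dex. Under TNF they were 26.3 and 21.4 FPKM, and under both agents 25.4 and 17.9 FPKM, so the fall was smallest under vehicle.

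In HEK293-GR cells, knockdown lowered SREBF2, INSIG1 and several sterol enzymes, MVD and LSS among them, under both treatments. Under vehicle, 6 of the 32 genes fell and 1 rose: MVD, SQLE, LSS, TM7SF2, INSIG1 and SREBF2 were lower and STARD4 was higher (limma on log2(FPKM + 0.1), adjusted p under 0.05 over 15594 genes). In such bulk samples less RNA per cell cannot be told apart from fewer cells of a kind. Over all genes tested, 15.5% were called, 7.48% lower and 8% higher. Under dex, 16 of the 32 fell and 4 rose, where 39.7% of all genes were called, 17.3% lower and 22.4% higher. The median log2 fold change of the 32 was -0.18 under vehicle and -0.24 under dex, against 0.03 and -0.00 over all genes tested, and 26 and 28 of the 32 values were below 0. By branch, the dex count was 9 lower and 1 higher of 18 sterol enzymes, 3 lower and 2 higher of 6 regulators and carriers, and 4 lower and 1 higher of 8 fatty acid enzymes. The authors' deposited table called 5 lower and 1 higher under vehicle, where it called 843 of all genes tested here. Under dex it called 22 lower and 4 higher, and 7245 of all genes tested here. Its fold changes differed from those fitted here by at most 0.0321 for any of the 32.

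**Figure D1:**
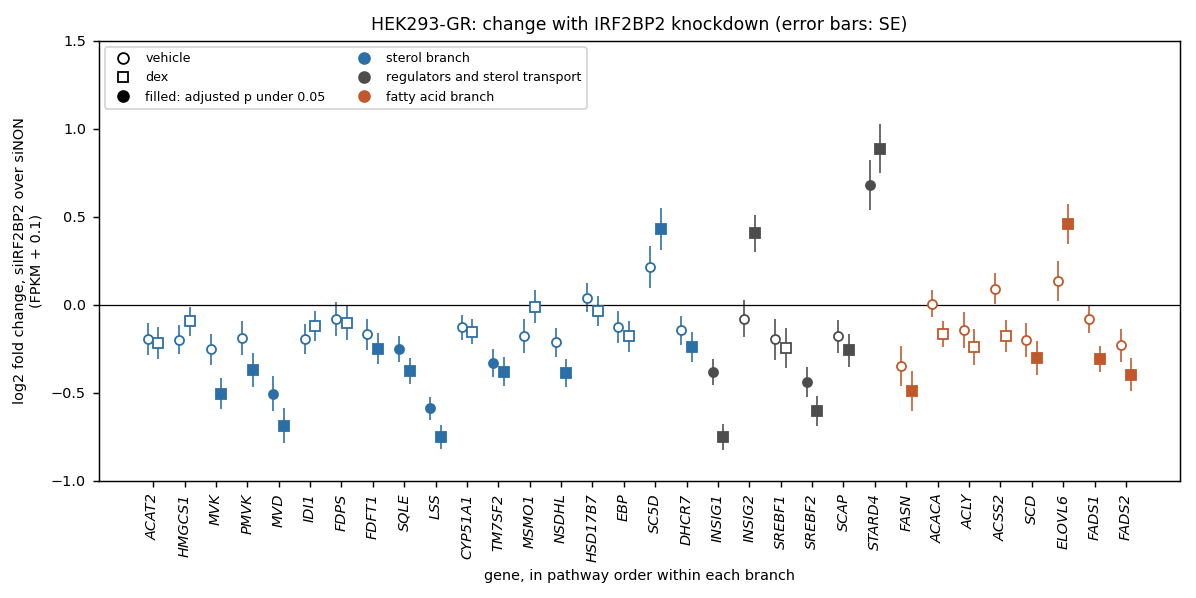
Log2 fold change of siIRF2BP2 over siNON in HEK293-GR cells under vehicle (circles) and dex (squares) for the 32 genes in pathway order, with standard errors; filled symbols passed adjusted p under 0.05 in limma. Most symbols lie below 0, with LSS and INSIG1 lowest under dex at -0.75 and STARD4 highest at 0.89.

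The sterol enzymes are taken in the order of their reactions. ACAT2 and HMGCS1, which join acetyl-CoA units into HMG-CoA, did not pass the test under either treatment. Their log2 fold changes were -0.19 and -0.20 under vehicle and -0.22 and -0.09 under dex. MVK, the kinase that phosphorylates mevalonate, was at 14.7, 17.2 and 17.7 FPKM with siNON and dex and at 12.1, 10.8 and 12.03 FPKM with siIRF2BP2 and dex. The groups did not overlap, and MVK fell by 0.50 (SE 0.09; limma, adjusted p = 0.000694). Under vehicle MVK was at 16.2, 14.4 and 15.02 FPKM and 13.8, 11.6 and 13.01 FPKM, a log2 fold change of -0.25 that missed the threshold (limma, adjusted p = 0.0617). PMVK, the next kinase, was at 21.9, 21.5 and 22.5 FPKM under dex with siNON and at 16.5, 17.8 and 16.6 FPKM with siIRF2BP2, a fall of 0.37 (SE 0.10; limma, adjusted p = 0.00791). Its vehicle libraries read 18.5, 20.7 and 17.6 FPKM and 17.8, 13.7 and 18.6 FPKM and overlapped.

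MVD, which decarboxylates mevalonate diphosphate to isopentenyl diphosphate, fell under both treatments. Its vehicle values were 19.1, 16.5 and 14.9 FPKM with siNON and 13.6, 11.3 and 10.6 FPKM with siIRF2BP2, and its dex values were 15.5, 16.5 and 17.4 and 10.2, 10.5 and 9.96 FPKM. No knockdown library reached its control group, and the log2 fold changes were -0.50 and -0.69 (SE 0.10 for each; limma, adjusted p = 0.00338 and 0.000189). The next steps moved less. IDI1, the isomerase, and FDPS, which makes farnesyl diphosphate, did not pass under either treatment, with log2 fold changes from -0.20 to -0.08. FDFT1, the squalene synthase, was at 47.1, 47.3 and 48.6 FPKM under dex with siNON and at 41.6, 43.96 and 35.1 FPKM with siIRF2BP2. It fell by 0.25 there (SE 0.09; limma, adjusted p = 0.0334), and its vehicle values of 41.6, 45.6 and 40.8 and 36.9, 36.00 and 41.1 FPKM overlapped.

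SQLE and LSS turn squalene into lanosterol, the entry to the sterols. SQLE, squalene epoxidase, was at 39.8, 43.9 and 41.4 FPKM against 35.5, 32.96 and 36.8 FPKM under vehicle and at 38.4, 36.9 and 38.2 FPKM against 29.6, 30.8 and 27.1 FPKM under dex. It fell by 0.25 and 0.38 (SE 0.07; limma, adjusted p = 0.0311 and 0.00138). LSS, lanosterol synthase, had the largest falls of the 18 enzymes under both treatments. Its siNON libraries read 27.2, 26.7 and 24.8 FPKM under vehicle and 31.2, 32.4 and 32.3 FPKM under dex. With siIRF2BP2 they read 17.9, 16.2 and 18.1 and 19.2, 19.4 and 18.3 FPKM, far below either control group. LSS fell by 0.59 under vehicle and by 0.75 under dex (SE 0.07 for each; limma, adjusted p = 5.00e-05 and 3.31e-06).

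Behind lanosterol the enzymes differed among themselves. CYP51A1, the lanosterol demethylase, MSMO1 and HSD17B7, which work on the methyl groups and the ketone left by their removal, and EBP, a sterol isomerase, did not pass under either treatment, with log2 fold changes from -0.18 to 0.04. TM7SF2, a sterol reductase, was at 13.5, 15.2 and 13.1 FPKM against 11.8, 10.5 and 10.9 FPKM under vehicle and at 13.98, 13.8 and 15.4 FPKM against 11.7, 11.3 and 10.2 FPKM under dex. The groups stayed apart, and TM7SF2 fell by 0.33 and 0.38 (SE 0.08 for each; limma, adjusted p = 0.0129 and 0.00228). NSDHL, a sterol dehydrogenase, fell by 0.39 under dex (SE 0.08; limma, adjusted p = 0.00202). DHCR7, the reductase that closes 1 route to cholesterol, was at 40.5, 41.04 and 41.4 FPKM against 34.5, 37.4 and 32.2 FPKM under dex, a fall of 0.24 (SE 0.09; limma, adjusted p = 0.0338), and under vehicle its values of 40.9, 41.03 and 37.7 and 36.2, 32.1 and 40.2 FPKM overlapped. SC5D, the desaturase just before it, went the other way. Under dex SC5D was at 7.26, 7.57 and 6.63 FPKM with siNON and at 10.3, 9.53 and 9.23 FPKM with siIRF2BP2, and it rose by 0.43 (SE 0.12; limma, adjusted p = 0.00984). Under vehicle its siNON values of 6.86, 6.99 and 9.76 FPKM included siNON replicate 3 above most siIRF2BP2 libraries, which read 8.55, 10.1 and 8.50 FPKM.

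Among the regulators, SREBF2 and INSIG1 fell together. SREBF2 was at 29.1, 32.1 and 24.9 FPKM with siNON against 20.7, 19.8 and 22.8 FPKM with siIRF2BP2 under vehicle, and at 30.7, 29.3 and 31.7 against 19.7, 20.7 and 19.9 FPKM under dex. The log2 fold changes were -0.44 and -0.60 (SE 0.09 for each; limma, adjusted p = 0.00369 and 0.000189), without overlap of the groups. INSIG1, the sterol-sensing retention protein, was at 46.9, 51.4 and 47.9 FPKM against 36.9, 35.7 and 39.5 FPKM under vehicle and at 41.3, 39.7 and 38.6 against 23.7, 25.4 and 22.1 FPKM under dex. It fell by 0.38 and 0.75 (SE 0.07 for each; limma, adjusted p = 0.00337 and 8.29e-06). Its relative INSIG2 read 5.32, 5.44 and 6.54 FPKM with siNON and 5.38, 6.02 and 4.95 FPKM with siIRF2BP2 under vehicle, which overlapped. Under dex INSIG2 was at 4.83, 5.66 and 4.72 FPKM against 6.95, 6.45 and 6.80 FPKM and rose by 0.41 (SE 0.11; limma, adjusted p = 0.00746).

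SCAP, the escort protein, was at 33.7, 32.2 and 34.1 FPKM against 28.6, 29.04 and 25.9 FPKM under dex and fell by 0.26 (SE 0.09; limma, adjusted p = 0.0368), while its vehicle values of 30.9, 34.1 and 26.8 and 28.3, 23.8 and 28.9 FPKM overlapped. SREBF1 did not pass in either knockdown comparison (-0.20 under vehicle and -0.25 under dex). STARD4, a soluble protein that carries sterol between membranes, had the largest rise. It was at 8.28, 8.50 and 12.7 FPKM with siNON and at 14.1, 17.6 and 14.96 FPKM with siIRF2BP2 under vehicle, with siNON replicate 3 above the other control libraries. Under dex it was at 6.13, 5.85 and 4.67 FPKM against 10.2, 10.2 and 10.4 FPKM. Its log2 fold changes were 0.68 and 0.89 (SE 0.14 for each; limma, adjusted p = 0.00519 and 0.000394), and the groups stayed apart.

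**Figure D2:**
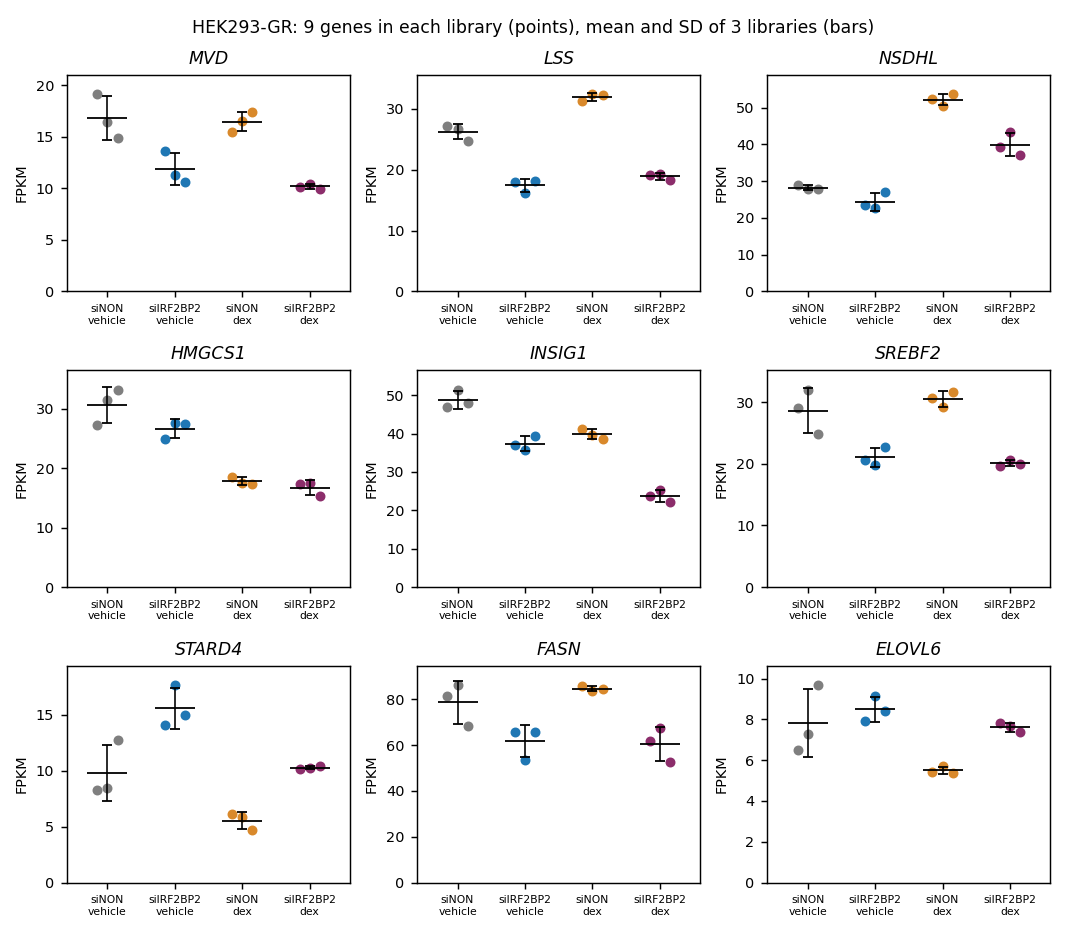
FPKM of 9 genes in each of the 12 HEK293-GR libraries (points), with the mean and SD of the 3 libraries of a group (black bars); each vertical axis starts at 0. The siIRF2BP2 libraries of LSS, MVD, SREBF2 and INSIG1 lie below the siNON libraries under the same treatment, those of STARD4 lie above them, and dex raised NSDHL and lowered HMGCS1 with both siRNAs.

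In the fatty acid branch no gene passed under vehicle, and under dex 4 fell and 1 rose. FASN, fatty acid synthase, was at 85.8, 83.7 and 84.5 FPKM with siNON and at 61.98, 67.4 and 52.5 FPKM with siIRF2BP2 under dex. It fell by 0.49 there (SE 0.11; limma, adjusted p = 0.00418). Under vehicle it was at 81.5, 86.2 and 68.4 FPKM against 65.8, 53.6 and 65.9 FPKM, also without overlap, and its log2 fold change of -0.35 missed the threshold (limma, adjusted p = 0.0505). The upstream enzymes ACLY, ACSS2 and ACACA, which make acetyl-CoA and malonyl-CoA, did not pass, with dex log2 fold changes of -0.24, -0.18 and -0.17. The desaturases fell together under dex. SCD, which makes oleate from stearate, was at 61.2, 57.8 and 60.3 FPKM against 48.8, 53.5 and 43.3 FPKM. FADS1 was at 37.2, 36.01 and 37.4 FPKM against 30.1, 31.5 and 27.7 FPKM, and FADS2 at 57.9, 57.5 and 57.7 FPKM against 45.4, 47.97 and 38.5 FPKM. FADS1 and FADS2 desaturate polyunsaturated fatty acids, and the 3 log2 fold changes were -0.30, -0.31 and -0.40 (limma, adjusted p = 0.0209, 0.00575 and 0.00464). Under vehicle SCD read 64.2, 73.3 and 61.6 FPKM against 56.03, 54.1 and 63.2 FPKM, FADS1 32.3, 34.3 and 30.6 against 29.6, 29.00 and 33.3 FPKM, and FADS2 51.6, 54.9 and 48.2 against 43.8, 39.6 and 48.6 FPKM, with overlap in each. ELOVL6, the elongase that lengthens palmitate, rose under dex from 5.44, 5.70 and 5.38 FPKM to 7.80, 7.67 and 7.38 FPKM, by 0.46 (SE 0.11; limma, adjusted p = 0.0056).

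The vehicle count depended on 1 library and on scaling. Without siNON vehicle replicate 3, 13 of the 32 passed, 10 lower and 3 higher, among 4815 called genes in all (30.9% of all genes). With median-of-ratios scaling 12 were lower and 1 higher, where 17.6% of all genes were called. In the reported fit 15.5% of all genes were called. Both settings kept the 7 calls. The calls of LSS, MVD, INSIG1, SREBF2 and STARD4 held when any 1 of the 6 vehicle libraries was left out. TM7SF2 lost its call without siNON replicate 2 or siIRF2BP2 replicate 2 (limma, adjusted p = 0.0654 and 0.0535). SQLE lost it without replicate 1 or 2 of either group (limma, adjusted p from 0.0503 to 0.137). Under dex, 16 of the 20 calls held in each leave-out. FDFT1, DHCR7 and SCAP lost theirs on leaving out any of the 6 dex libraries except siIRF2BP2 replicate 2, and SCD without replicate 1 or 3 of either group, with adjusted p in limma between 0.056 and 0.119. The deepest library, siIRF2BP2 dex replicate 3 at 28.5 M tags, was lowest of its group for dense genes such as FASN, SCD, FDFT1 and FADS2. Without it the FDFT1 value moved to -0.16, that of FASN to -0.39 and that of FADS2 to -0.30. With log2 tags per library as a covariate, 19 genes were lower and 4 higher under dex, the 20 among them (40.8% of all genes called). In that fit the median log2 fold change of the 32 was smaller in size. It went from -0.24 to -0.21 under dex and from -0.18 to -0.12 under vehicle.

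In HEK293-GR cells dex raised NSDHL and lowered HMGCS1, STARD4, INSIG1 and SREBF1 with both siRNAs. With siNON, 6 of the 32 fell (9.82% of all genes) and 2 rose (10.9%, so 20.7% in either direction). With siIRF2BP2, 5 fell (4.59%) and 1 rose (5.86%), where 10.5% of all genes were called in either direction. NSDHL rose most with both siRNAs, from 29.00, 27.8 and 27.9 FPKM to 52.3, 50.5 and 53.6 FPKM with siNON and from 23.4, 22.6 and 27.2 to 39.4, 43.2 and 37.02 FPKM with siIRF2BP2. The log2 fold changes were 0.88 and 0.71 (SE 0.08 for each; limma, adjusted p = 5.38e-07 and 9.17e-06). HMGCS1, the synthase at the entry to the mevalonate pathway, fell from 27.3, 31.5 and 33.2 FPKM to 18.5, 17.6 and 17.3 FPKM with siNON. With siIRF2BP2 it fell from 24.8, 27.7 and 27.4 to 17.3, 17.6 and 15.3 FPKM. Every dex library lay below every vehicle library, at log2 fold changes of -0.78 and -0.67 (SE 0.08 for each; limma, adjusted p = 3.05e-06 and 2.10e-05). STARD4 fell by 0.80 and 0.59, and INSIG1 by 0.29 and 0.66 (limma, adjusted p = 0.000625, 0.00982, 0.0109 and 8.28e-06).

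SREBF1, the activator of the fatty acid branch, was at 12.6, 13.3 and 9.70 FPKM with siNON and vehicle, at 8.68, 9.17 and 8.89 with siNON and dex, at 11.2, 8.71 and 11.1 with siIRF2BP2 and vehicle, and at 7.12, 8.25 and 7.18 FPKM with siIRF2BP2 and dex. Dex lowered it by 0.40 and 0.45 (SE 0.12 for each; limma, adjusted p = 0.0239 and 0.0179). With siNON alone, IDI1 went from 41.6, 44.6 and 50.2 to 37.5, 37.3 and 35.9 FPKM, a fall of 0.30 (SE 0.09; limma, adjusted p = 0.022). Its siIRF2BP2 values were 37.8, 40.7 and 40.2 FPKM with vehicle and 35.03, 36.6 and 30.4 FPKM with dex, a log2 fold change of -0.22 that missed the threshold. ELOVL6 went from 6.51, 7.26 and 9.67 to 5.44, 5.70 and 5.38 FPKM with siNON, a fall of 0.48 (SE 0.11; limma, adjusted p = 0.00687), and LSS rose by 0.28 (SE 0.07; limma, adjusted p = 0.0065). With siIRF2BP2, ELOVL6 was at 7.90, 9.15 and 8.40 FPKM before and 7.80, 7.67 and 7.38 FPKM after dex, and SQLE fell by 0.27 (SE 0.07; limma, adjusted p = 0.026).

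NSDHL, HMGCS1 and STARD4 kept their dex calls in each leave-out with both siRNAs. Without siNON dex replicate 3, 5 of the 8 calls with siNON remained, INSIG1, IDI1 and SREBF1 being lost (limma, adjusted p = 0.0614, 0.0921 and 0.0709). SREBF1 also missed the threshold without siNON dex replicate 1 or 2 or siNON vehicle replicate 1 or 2, and IDI1 without siNON dex replicate 1 or 2 or siNON vehicle replicate 3 (limma, adjusted p from 0.0505 to 0.108). Leaving out siNON vehicle replicate 3 moved ELOVL6 to -0.32. With siIRF2BP2, SQLE and SREBF1 lost their calls without replicate 1 or 3 of either group (limma, adjusted p from 0.0719 to 0.0974). With log2 tags per library as a covariate, 13 of the 32 passed with siNON, 8 lower and 5 higher, FDFT1, SQLE, SCD, FADS1 and FADS2 being added. Of all genes, 21.5% were called in that fit.

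The dex responses of the 2 siRNA groups were compared directly by an interaction term in limma. None of the 32 passed (0.0128% of all genes did, 2 genes), and 2 had an unadjusted p under 0.05. They were INSIG1, whose dex fall was larger by 0.37 with siIRF2BP2 (SE 0.10; limma, adjusted p = 0.537), and INSIG2, whose difference was 0.49 (SE 0.15; limma, adjusted p = 0.673). With tags per library as a covariate INSIG1 passed at -0.39 (limma, adjusted p = 0.0414). The counts of knockdown calls under dex and under vehicle were therefore not shown to differ by these tests.

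The 9 genes that passed in no HEK293-GR comparison of the reported limma fit were ACAT2, FDPS, CYP51A1, MSMO1, HSD17B7, EBP, ACACA, ACLY and ACSS2. Of these, ACAT2, CYP51A1, EBP, ACACA and ACLY were called lower for knockdown under dex by the authors' deposited table. The same genes were called lower there in limma with median-of-ratios scaling, and their siNON and siIRF2BP2 libraries did not overlap under dex. Their levels ranged from 5.71 FPKM for HSD17B7 to 83.1 FPKM for ACLY. Another gene's transcript overlaps 11 of the 32 in the annotation used. Among them are TM7SF2 (VPS51), STARD4 (STARD4-AS1), IDI1 (IDI2-AS1), ACAT2 (TCP1), CYP51A1 (CYP51A1-AS1) and FADS1 with FADS2. The HEK293-GR transcript of FADS1 ends at 61584529 and that of FADS2 starts at 61595505, so these do not overlap. The FADS2 transcript taken in A549 starts at 61583675 and does overlap. How far reads of overlapping genes were mixed was not tested. HSD17B7 and FDPS have near-identical pseudogene copies, so their values are uncertain as well.

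In A549 cells most of the 32 genes were lower after knockdown under each of the 4 treatments. By the authors' deposited table, 23 of the 32 genes were lower and 1 higher after knockdown under vehicle (FDR under 0.05), where 36% of 15866 genes were called, 19% lower and 17% higher. Under dex that table gave 22 lower and 2 higher (33.3% of all genes called, 17.3% lower and 16% higher). Under TNF it gave 22 lower and 2 higher (40.7%, 20.1% lower and 20.6% higher), and under both agents again 22 and 2 (37.7%, 18.9% lower and 18.7% higher). The median log2 fold change of the 32 in the authors' deposited table was -0.48, -0.42, -0.45 and -0.47 in these 4 comparisons, against 0.01, 0.00, 0.02 and 0.01 over all genes. The authors' deposited fold changes minus the log2 ratios of the authors' pooled FPKM had a median of -0.10 under vehicle and dex, -0.08 under TNF and -0.06 under both. Measured from the median of all genes, the 32 had median pooled ratios of -0.46, -0.40, -0.42 and -0.44.

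Across the 4 knockdown comparisons, which share no samples, 19 of the 32 were lower in each by the authors' deposited table: 12 sterol enzymes, 2 regulators and 5 fatty acid enzymes (10.2% of all genes were lower in each). INSIG1 had the largest changes, -2.07 with vehicle, -1.96 with dex, -1.65 with TNF and -1.49 with the 2 agents in the authors' deposited table. Its pooled values there went from 45.5 to 12.1 FPKM under vehicle, from 28.2 to 8.34 FPKM under dex, from 36.7 to 12.8 FPKM under TNF, and from 21.7 to 8.37 FPKM under both. SREBF2 was at -0.98, -0.97, -0.85 and -0.80 in the authors' deposited table, with pooled values of 4.45 and 2.33 FPKM under vehicle.

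Within the sterol branch, HMGCS1 had the largest fall under vehicle, dex and TNF in the authors' deposited table, at -1.22, -1.09 and -1.09, and -0.93 under both agents. The authors' pooled HMGCS1 values were 27.1 and 12.9 FPKM under vehicle. Among enzymes behind lanosterol, over the 4 treatments, the authors' deposited table had TM7SF2 from -1.04 to -0.73, MSMO1 from -0.93 to -0.65 and CYP51A1 from -0.90 to -0.63. MVD was at -0.91 under vehicle and -0.88 under dex and IDI1 at -0.75 under dex in the authors' deposited table. LSS, the enzyme with the largest HEK293-GR falls, was lower in the authors' deposited table under vehicle (-0.59) and dex (-0.36), while under TNF (0.13) and both agents (0.07) it was not called. SQLE and PMVK were lower in 3 of the 4 comparisons and HSD17B7 in 2 by the authors' deposited table. NSDHL and SC5D were called in none of them, the latter lying between -0.06 and 0.12 in the authors' deposited table.

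**Figure D3:**
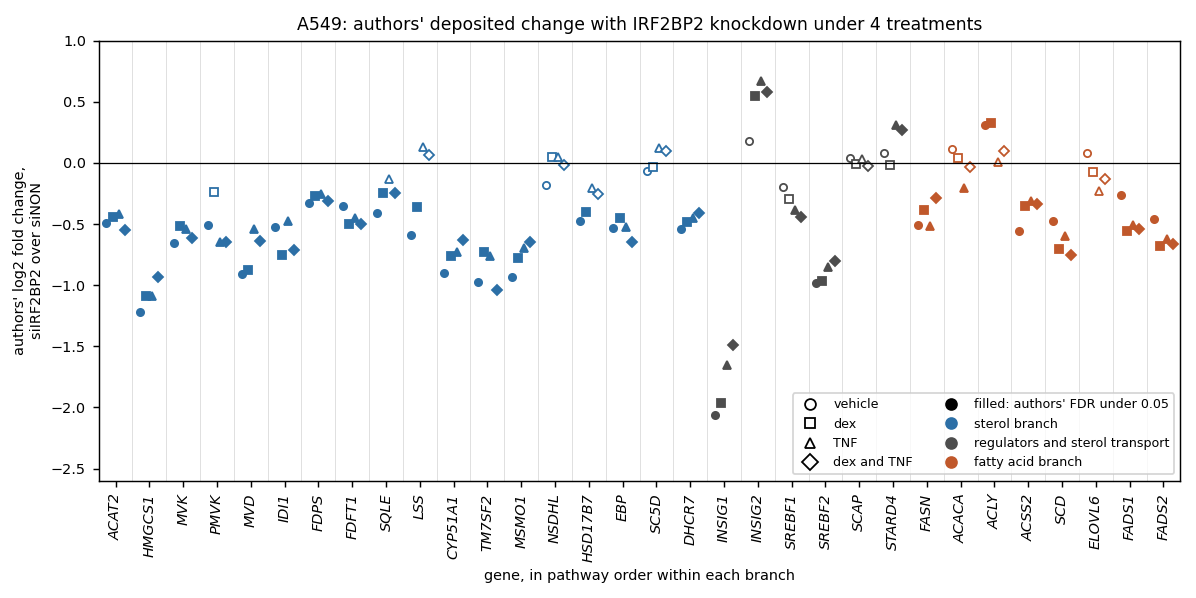
The authors' deposited log2 fold change of siIRF2BP2 over siNON in A549 cells under vehicle (circles), dex (squares), TNF (triangles) and both (diamonds), 1 column per gene in pathway order; filled symbols had the authors' FDR under 0.05. INSIG1 lies lowest, from -2.07 to -1.49, and INSIG2 highest, up to 0.67 under TNF.

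Of the other regulators, INSIG2 was higher under dex, TNF and both in the authors' deposited table, at 0.55, 0.67 and 0.58, and at 0.18 under vehicle it was not called. Its authors' pooled values under TNF were 0.778 FPKM with siNON and 1.32 FPKM with siIRF2BP2, scaled to a genomic span of 21547 bases. None of the 32 had fewer than 367 reads in any pooled A549 column. STARD4 was higher under TNF (0.31) and both agents (0.27), and SREBF1 lower under the same treatments (-0.39 and -0.44) in the authors' deposited table. SCAP was called in none of the 4 comparisons there. In the fatty acid branch, the authors' deposited table had FASN, ACSS2, SCD, FADS1 and FADS2 lower under every treatment. SCD, with the highest FPKM of the 32 in the authors' pooled A549 columns (183 with siNON and vehicle), was at -0.47, -0.70, -0.60 and -0.75. ACLY went against its branch at 0.31 under vehicle and 0.32 under dex in the authors' deposited table, ACACA was lower under TNF alone, at -0.20, and ELOVL6 was called in none. Whether the knockdown effect on any gene differed between A549 treatments was not tested, since replicates were pooled.

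The knockdown calls of the 2 lines were set side by side. Under vehicle 6 genes were lower in both, all 6 (100%) of those lower in HEK293-GR and 26.1% of those lower in A549 by the authors' deposited table. Of 14312 genes tested in both lines, 4.11% were lower in both under vehicle, 53.3% of those lower in HEK293-GR and 20.8% of those lower in the authors' deposited table for A549. Under dex 13 genes were lower in both, 81.2% of the HEK293-GR and 59.1% of the A549 calls in the authors' deposited table, against 5.95% of all genes, with shares of 33.1% and 33.5% of all lower calls. The 13 were MVK, MVD, FDFT1, SQLE, LSS, TM7SF2 and DHCR7, the regulators INSIG1 and SREBF2, and FASN, SCD, FADS1 and FADS2, while INSIG2 was higher in both. With limma calls for HEK293-GR and the authors' deposited calls for A549, none of the 32 was called in opposite directions by knockdown. By the authors' deposited calls in both lines, ACLY was opposite under dex, lower in HEK293-GR at -0.26 and higher in A549 at 0.32. In the HEK293-GR limma fit ACLY was at -0.24 under dex and did not pass. Across the 32 genes, Pearson's r between the HEK293-GR knockdown values and the authors' deposited A549 values was 0.52 under vehicle and 0.51 under dex. For the dex responses r was -0.02 with siNON and 0.19 with siIRF2BP2. These values describe genes that share libraries, and r over all genes was not computed. HMGCS1, MSMO1, CYP51A1 and IDI1 had A549 log2 fold changes of -1.09, -0.78, -0.76 and -0.75 under dex in the authors' deposited table. In the HEK293-GR fit they were at -0.09, -0.01, -0.15 and -0.12, and none of them passed. CYP51A1 was called lower by the authors' deposited table for HEK293-GR. STARD4, with the largest HEK293-GR rise of 0.89, was at -0.02 in the authors' deposited table for A549 under dex. Differences between lines were not tested.

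**Figure D4:**
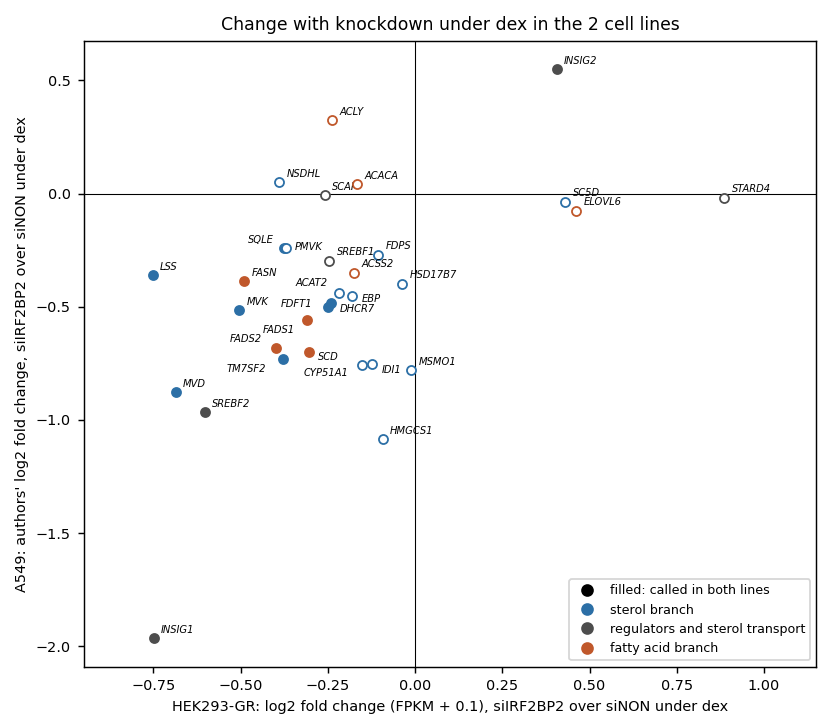
Log2 fold change of siIRF2BP2 over siNON under dex for each of the 32 genes, in HEK293-GR cells (horizontal, fitted with limma) and in A549 cells (vertical, the authors' deposited value); filled points were called in both lines. 13 filled points lie at the lower left, with INSIG1 lowest at -0.75 and -1.96, and INSIG2 is the only filled point in the upper right.

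The dex response of A549 cells was read from the authors' deposited table. With siNON, HMGCS1 was the 1 gene of the 32 called higher with dex, at 0.70, and INSIG1 the 1 called lower, at -0.61. Of all genes, 11.1% were called in that comparison, 6.49% higher and 4.59% lower. HMGCS1 rose with dex in A549 also with siIRF2BP2, at 0.83 in the authors' deposited table, and fell in HEK293-GR with both siRNAs. With siIRF2BP2, the authors' deposited table had 7 higher and 6 lower (25.2% of all genes called, 14% higher and 11.2% lower). NSDHL, which rose most in HEK293-GR, was at 0.09 with siNON and 0.32 with siIRF2BP2 in the authors' deposited table for A549.

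TNF lowered most fatty acid enzymes of the 32 in A549. With siNON, the authors' deposited table had 9 of the 32 lower and none higher (20.5% of all genes called, 9.87% lower). Of these, 6 were among the 8 fatty acid enzymes: FASN at -0.42, ACACA at -0.26, ACLY at -0.38, ACSS2 at -0.39, SCD at -0.37 and ELOVL6 at -0.48. The branch median in the authors' deposited table was -0.37, against -0.15 for the sterol branch and -0.02 for all genes. The 3 sterol enzymes lower there were MVK at -0.35, SQLE at -0.27 and TM7SF2 at -0.38, by the authors' deposited table. With siIRF2BP2, that table had 12 lower and 7 higher (39.2% of all genes called, 19.7% lower and 19.5% higher), including 7 of the 8 fatty acid enzymes lower, with medians of -0.47 for the fatty acid branch and 0.05 for the sterol branch. ELOVL6 was at -0.79, ACLY at -0.69 and ACACA at -0.58, while LSS was at 0.76 and MVD at 0.36, all in the authors' deposited table. The authors' pooled LSS values were 3.13 and 2.94 FPKM with siNON before and after TNF, and 2.17 and 3.38 FPKM with siIRF2BP2. Whether TNF responses differed between siRNAs was not tested.

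**Figure D5:**
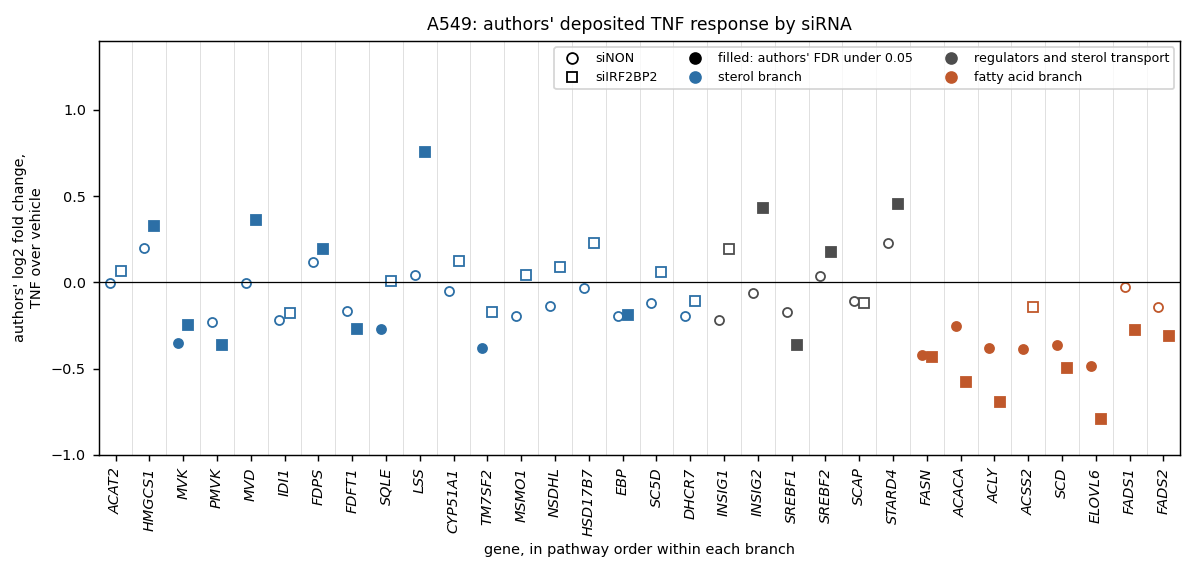
The authors' deposited log2 fold change of TNF over vehicle in A549 cells with siNON (circles) and siIRF2BP2 (squares), 1 column per gene in pathway order; filled symbols had the authors' FDR under 0.05. All 16 symbols of the 8 fatty acid genes lie below 0, while the sterol genes lie on both sides, up to 0.76 for LSS.

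Both agents together gave 12 lower and 1 higher with siNON (22.2% of all genes called, 10.1% lower and 12.1% higher) in the authors' deposited table. With siIRF2BP2 that table had 14 lower and 6 higher (43.3%, 20.9% lower and 22.5% higher). The fatty acid branch had 5 and 7 of its 8 genes lower, with medians of -0.29 and -0.37 in the authors' deposited table. INSIG1 was at -0.99 and -0.41, SREBF1 at -0.44 and -0.69, and LSS at 0.23 and 0.89 in the authors' deposited table. The dex, TNF and combined responses of a siRNA group share their vehicle control, so their values are set side by side and not compared. For TNF and for both agents with siIRF2BP2, the authors' deposited fold changes lay above the pooled FPKM ratios by a median of 0.11 and 0.12.

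Other genes of the same pathways, not among the 32, were called in both directions. Under dex in HEK293-GR, 5 of 19 tested genes of isoprenoid synthesis, sterol transport and SREBP processing fell and 3 rose, with a median log2 fold change of -0.10. Of 23 tested genes of fatty acid activation, elongation and glyceride synthesis 7 fell and 2 rose, with a median of -0.12. Of all genes tested, 17.3% fell and 22.4% rose in that comparison, so these counts are not read as results about the 2 lists. COQ2, a prenyltransferase of coenzyme Q synthesis, fell by 0.86 (limma, adjusted p = 3.31e-06). DHDDS, which makes dolichol precursors, fell by 0.31, and ERLIN1, a membrane protein that binds the SREBP complex, rose by 0.37 (limma, adjusted p = 0.0024 and 0.00109). The acyltransferase AGPAT2 fell by 0.52 and the acyl-CoA synthetase ACSL1 by 0.33, whereas ACSL4 rose by 0.54 and GPAM by 0.48 (limma, adjusted p = 0.000422, 0.00241, 0.00457 and 0.0057). By the authors' deposited table for A549, COQ2 was lower and ERLIN1 higher in each of the 4 knockdown comparisons.

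IRF2BP2 peaks were set against the starts of the 32 genes. The authors' peak lists, in build hg19, held 1108 peaks after vehicle and 1400 after dex, 1 list per condition for 2 replicates. None of the 32 genes had a peak within 10 kb of its start in either list, where 1.12% and 1.25% of all genes did. The nearest peaks in the dex list were 17.6 kb from the start of ACACA and 40.1 kb from that of LSS, and those 2 genes (6.25% of the 32) were within 50 kb, against 5.22% of all genes. At both distances the counts for the 32 lay near the shares of all genes. In the vehicle list the nearest was 76.9 kb from the start of SREBF1. The median distance over the 32 was 1273 kb after vehicle and 731 kb after dex. IRF2BP2 itself had a vehicle peak 0.193 kb from its start, while its nearest peak in the dex list was 85.6 kb away.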

How the data were processed

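The 32 genes and the gene lists were chosen with earlier results of these data known. FPKM values, log2 fold changes and adjusted p-values were deposited by the authors. The submitters' processing notes name Trimmomatic 0.33, TopHat2, Bowtie2, HOMER, edgeR and hg19 for RNA, and Bowtie 0.12.9, HOMER 4.10.3 and bedtools for ChIP, without roles. The deposited peak lists carry a constant score, so only positions were used.

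Depth was read from FPKM steps, which gave whole reads (tolerance 0.01 beyond the rounding of the values) for 100% of the 8137 to 8583 genes checked per HEK293-GR library and the 3406 to 4801 per A549 column. In HEK293-GR, the 15594 genes that reached 10 reads in 3 or more of 12 libraries were fitted with limma 3.58.1 (R 4.3.3) on log2(FPKM + 0.1). The 4 groups entered 1 fit, which left 8 residual degrees of freedom. P-values were adjusted over all genes by Benjamini-Hochberg, with a threshold of 0.05. A pseudocount understates changes of low genes. The fit was also run on simulated counts with known changes. These had the same spread setting for every gene, no outlying library and no upper level of reads per base. That run therefore does not show how the fit behaves on these data. In A549 each gene was taken by its transcript with the highest mean FPKM × length, and background shares cover 15866 symbols with at least 10 reads in at least 3 pooled columns.

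All 32 genes are accounted for, with values per library for those called in any HEK293-GR comparison. Non-members were named as the 4 of each other list with the smallest p under dex knockdown, of which 1 is not reported here. Promoters came from RefSeq (GRCh38.p14), and expression and peak positions are hg19. Alternatives were the pseudocount, the filter, scaling, samples fitted, a replicate block, leaving out each library, the authors' calls, transcript choice, an FDR of 0.01, pooled ratios and peak windows, and, added after seeing the data, depth as a covariate.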

Additional observations from a re-analysis of the deposited data

How the results depend on the processing

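Of the HEK293-GR counts of called genes, that for knockdown under vehicle (7) rose to 13 with median-of-ratios scaling, and that for dex with siNON (8) rose to 13 with log2 tags per library as a covariate, which was chosen after seeing the data. Over all genes these settings called 17.6% and 21.5%, against 15.5% and 20.7% in the reported fit. The depth covariate moved the difference of dex responses from 0 to 1 (0.0257% of all genes called). The cause was not tested. Leaving out single libraries gave 5 to 13 calls for knockdown under vehicle, 16 to 23 for knockdown under dex, 5 to 7 for dex with siNON, 4 to 7 for dex with siIRF2BP2 and 0 for the difference, where fewer libraries also leave fewer degrees of freedom. Of all genes, these fits called 7.45% to 30.9%, 26.5% to 34.4%, 12.7% to 25.1%, 8.02% to 9.51% and at most 0.0449%. No gene called in the reported fits changed direction under the alternatives run. Of genes not called, ACACA for knockdown under vehicle (0.00655 against -0.00696) and PMVK for dex with siIRF2BP2 (0.0349 against -0.00292) had opposite signs in the authors' deposited table. The median of the 32 for dex with siIRF2BP2 went from -0.03 to 0.02 without siIRF2BP2 vehicle replicate 3 and to 0.03 without siIRF2BP2 dex replicate 3.

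Replicate numbers did not pair the libraries: correlations of same-numbered deviations lay between -0.38 and 0.26, and 5 of 18 were the best match. With the number as a replicate block, the counts were 6, 17, 8, 5 and 0, against 7, 20, 8, 6 and 0 without it. Of all genes, 12.1%, 35.1%, 16.9%, 9.30% and 0% were called with the block. The calls not made with the block were SQLE for knockdown under vehicle and for dex with siIRF2BP2, and FDFT1, DHCR7 and SCAP for knockdown under dex.

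In A549, counting pooled FPKM ratios past 0.5 instead of the authors' FDR gave 9, 11, 10 and 14 genes for knockdown under vehicle, dex, TNF and both, against 24 in each. For the responses it gave 2 of 13 for dex with siIRF2BP2, 1 of 9 and 6 of 19 for TNF with siNON and siIRF2BP2, and 4 of 13 and 8 of 20 for both agents. An FDR under 0.01 gave 8 for dex with siIRF2BP2, 5 for TNF with siNON and 6 for both agents with siNON. Both are stricter rules by construction. The share of all genes passing either rule was not computed, so whether these counts exceed that share was not tested. A 50 kb window gave 2 genes with a dex peak, against 0 at 10 kb.

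Each of the 32 had at least 182 reads in every HEK293-GR library, and pooled A549 columns give no spread of their own. Another 4 HEK293-GR samples were not analysed here.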
